A study of Saccharomyces cerevisiae with 6 samples.

Results

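Budding yeast cells overexpressing *PPZ1* were compared with cells carrying the empty vector 1 h after both had been moved to medium with 2% galactose as the carbon source. The comparison covers every feature of the deposited table other than *PPZ1* itself, 6686 of 6687, with 1 library on each side. Of these, 5343 had a mean of at least 10 CPM (reads in a feature relative to the total of a library, on a common scale) over the 2 galactose libraries and entered the comparison, 1343 lay under that level, and 202 had no read in either library. The table holds 6 libraries in all, made from both kinds of cells in 2% glucose, in 0.25% glucose and in 2% galactose. With a single library per group there is no replicate error and no test was made, so every value below describes these 2 libraries. Errors written with ± are standard errors from read counting (on log2 differences) and they cover neither cultures nor library preparation.

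Both groups were the haploid strain BY4741. Control cells carried pCM190, a multicopy plasmid with a *tetO7* promoter that doxycycline keeps off and with *URA3* as its marker, and the other cells carried pCM190 with the *PPZ1* open reading frame behind that promoter. Cultures were kept overnight in synthetic medium lacking uracil, with doxycycline at 100 µg/ml. The drug was then withdrawn, and expression ran for 3.5 h (OD600 from 0.2 to 0.55) until cells were filtered and resuspended in the galactose medium. All cells therefore shared the strain, the vector backbone, the drug treatment and the carbon shift, and they differed in the *PPZ1* insert. The plasmid adds to the chromosomal *PPZ1* gene, which stayed in place in both.

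Ppz1 is a Ser/Thr phosphatase related to type 1 phosphatases, and an excess of it stops yeast growth. It acts on cation balance, through the potassium transporters Trk1 and Trk2 among other routes, and an excess of it lowers internal pH. It is held in check by the inhibitory subunits Hal3 (encoded by *SIS2*) and Vhs3. Galactose enters through the permease Gal2 and is turned into glucose 6-phosphate by the Leloir enzymes Gal1, Gal7, Gal10 and phosphoglucomutase, whose genes are switched on by the activator Gal4 once the sensor Gal3 relieves it of the inhibitor Gal80. Cells on galactose are largely freed from glucose repression and rely more on respiration than cells on glucose.

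Since the promoter elements that read the carbon source and stress bear on the gene groups described below, stretches of 5 upstream regions are shown here, taken from the RefSeq R64 assembly by the coordinates of the deposited features and written along the strand of the gene. For *GAL1*, *GAL7* and *GAL2* the capitals mark each match to the spacing of a Gal4 site, CGG and CCG with 11 bases between them. For *ADH1* they mark CTTCC, the core bound by the glycolytic activator Gcr1, and for *SSA4* they mark TTCNNGAA, a minimal element of the heat shock factor Hsf1. Both strands were searched, and overlapping matches were all kept, as in *GAL2*.
GAL1, chrII:278556-278633, plus strand: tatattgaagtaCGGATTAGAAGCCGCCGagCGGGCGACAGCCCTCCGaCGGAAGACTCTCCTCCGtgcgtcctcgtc
GAL7, chrII:275672-275731, minus strand: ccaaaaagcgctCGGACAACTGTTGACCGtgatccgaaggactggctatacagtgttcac
GAL2, chrXII:289784-289912, plus strand: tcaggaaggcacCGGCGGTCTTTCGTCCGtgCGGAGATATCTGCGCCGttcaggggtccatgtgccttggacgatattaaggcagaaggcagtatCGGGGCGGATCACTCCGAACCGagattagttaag
ADH1, chrXV:160759-160839, minus strand: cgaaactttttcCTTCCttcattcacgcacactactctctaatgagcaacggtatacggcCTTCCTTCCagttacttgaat
SSA4, chrV:364324-364383, plus strand: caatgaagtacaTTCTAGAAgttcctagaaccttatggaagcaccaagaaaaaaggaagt
Over the bases from 500 to 101 before the start codon, a Gal4-type match lay in 10 of 13 genes of galactose use (76.9%) and in 2.76% of all 5225 genes with such a window. TTCNNGAA lay in 23 of 31 chaperone genes and in 17.8% of all, whereas CTTCC was common everywhere, in 16 of 22 genes of glycolysis and fermentation and in 58.8% of all. CCCCT, the stress element read by Msn2 and Msn4, lay in 31 of 35 genes of the general stress list and in 29.5% of all. *GCY1*, *PCL10*, *FUR4* and *LAP3* were put under galactose use for their known Gal4 sites. The general stress list likewise holds known targets of Msn2 and Msn4. The high shares in both lists therefore follow in part from how the lists were made. These are matches of letters and not measured sites.

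The *PPZ1* mRNA stood at 75.03 CPM in control cells in galactose and at 2705 CPM in cells with the *PPZ1* plasmid. In the corresponding cells in 2% glucose and 0.25% glucose it reached 12538 and 17798 CPM, so the galactose culture carried the lowest level of the 3 overexpressing cultures. *URA3*, the plasmid marker, stood at 4116 CPM in control cells and 5575 CPM in cells overexpressing *PPZ1* in galactose, 0.44 ± 0.02 on the log2 scale. Reads in features numbered 3673635 and 3932576 in the 2 galactose libraries (1845237 to 6784469 over all 6), and a level of 10 CPM corresponded to 37.1 and 40.1 reads. A feature without reads could stand at up to 0.810 CPM in the control library and 0.748 CPM in the other, taking 3 counts as the limit. The 7 markers of mating type a were all above 10 CPM in both libraries, with sums of 637 and 540 CPM, while the 4 markers of the opposite mating type summed to 44.0 and 37.6 CPM, and 1 of them had no reads. *MET17* and *LEU2*, which BY4741 lacks, had 0 reads in both libraries. *HIS3*, also deleted or disrupted in the strain, still stood at 23.2 and 22.9 CPM.

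Very few genes differed by as much as 2-fold between cells overexpressing *PPZ1* and control cells in galactose. No gene was at least 2-fold higher (0% of 5343) and 3 were at least 2-fold lower (0.0561%). The gene with by far the greatest difference was *YOL086W-A*, which stood at 635 CPM in control cells and 92.4 CPM in cells overexpressing *PPZ1*, a log2 difference of -2.77 ± 0.08. In the other 4 libraries it stood between 52.7 and 94.3 CPM, so control cells in galactose were the single high library of the 6. The feature lies on the plus strand of chromosome XV (chrXV:159173-159445), next to the 3′ end of *ADH1*, which is read from the opposite strand (chrXV:159548-160594). The flanks of 50 bp that were counted with each feature bring both counting windows close together without overlap, and reads were counted by strand. *ADH1* stood at 6405 CPM in control cells and 9091 CPM with *PPZ1* in galactose. Whether its reads entered the count of *YOL086W-A* was not tested.

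Both other genes had few reads. *IPL1*, which encodes the aurora kinase that corrects attachment of chromosomes to the spindle, stood at 17.0 CPM in control cells and 7.48 CPM with *PPZ1* (-1.09 ± 0.29). *SHG1*, which encodes a subunit of the COMPASS histone methyltransferase, stood at 14.6 and 6.73 CPM (-1.01 ± 0.30). Their counting intervals reached up to -0.52 and -0.42, so the 2-fold threshold lay inside both. Just outside it on the low side were *YKL136W* (-0.97 ± 0.30) and *CRG1* (-0.94 ± 0.17), and on the high side *BIO3* (0.90 ± 0.30) and *ERR3* (0.83 ± 0.31).

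At a threshold of 1.5-fold, 10 genes were higher (0.187%) and 115 were lower (2.15%) with *PPZ1*. This split depended on how the libraries were scaled. With the authors' scaling to the total count, the median difference of all genes was -0.13 and 27.8% of the genes lay above 0. Median-of-ratios scaling moved that median up by 0.15, to 0.02, and gave 63 genes higher and 34 lower at 1.5-fold, of 5399 above the minimum. As CPM are shares of a bulk library, less of an mRNA in every cell, fewer cells making it and more of the other mRNAs cannot be told apart. The counts of genes higher or lower than 0 therefore carry no direction of their own, and groups are placed below against the median of all genes, which a single scaling factor hardly touches.

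**Figure D1:**
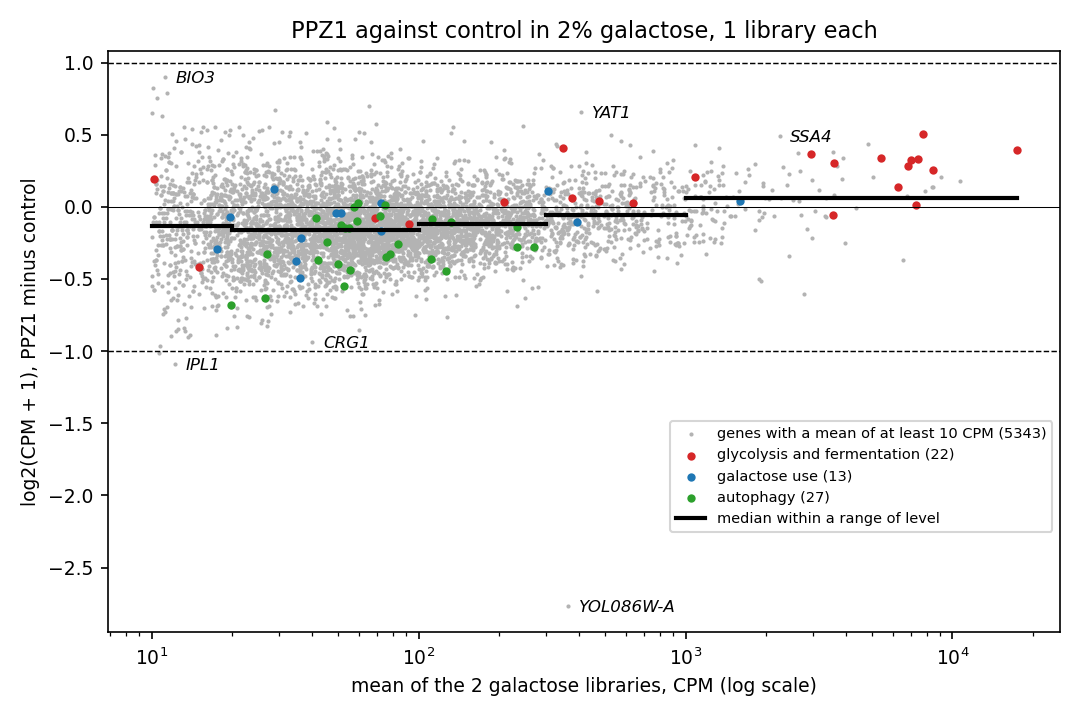
Log2 difference in CPM + 1 between cells overexpressing *PPZ1* and control cells in 2% galactose (vertical axis) against the mean CPM of both libraries (horizontal axis, log scale) for 5343 genes, 1 point a gene; coloured points are 3 of the gene lists, dashed lines mark 2-fold and black bars are medians within ranges of level. Glycolytic genes sit mostly at the top right, the median goes from -0.13 in the lowest range to 0.06 in the highest, and *YOL086W-A* lies alone at -2.77.

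The bulk of the transcriptome was close between both libraries. The log2 differences ran from -0.49 at the 5th percentile to 0.24 at the 95th, 94.9% of the genes lay within 0.5 of zero, and their robust SD was 0.21 where read counting alone gave a median error of 0.13. The difference leaned on the level of expression. Genes between 10 and 20 CPM had a median of -0.13, those between 50 and 100 CPM one of -0.16, and the 144 genes of at least 1000 CPM one of 0.06. Length mattered as well, in both directions. The 165 features under 300 bp had a median of -0.17 and the 814 of at least 2500 bp one of -0.21, against -0.09 for the 1139 features of 600 to 1000 bp. The part that level and length have in the results for gene groups was not tested beyond removing each trend in turn, and medians with the level or the length trend removed, to be read against 0.00 for all genes, are given beside the groups at both ends of the range.

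Most genes of galactose use stood at similar levels with and without excess Ppz1 at 1 h after the shift. *GAL1*, *GAL7*, *GAL10* and *GAL2* were low in both libraries beside *PGM2*. No later time was measured, so these values do not show whether the levels would stay alike after longer induction. *GAL1*, which encodes galactokinase, stood at 27.5 CPM in control cells and 30.2 CPM in cells overexpressing *PPZ1* (0.13 ± 0.19). *GAL7*, which encodes the uridylyltransferase, stood at 52.1 and 50.6 CPM (-0.04 ± 0.14). *GAL10*, for the epimerase and mutarotase, stood at 20.2 and 19.2 CPM (-0.07 ± 0.22). Each of these pairs differed by less than its counting error. *GAL2*, for the permease, stood at 38.9 and 33.4 CPM (-0.21 ± 0.17), and *PGM2*, for the main phosphoglucomutase, was the most abundant of the list with 1576 and 1621 CPM (0.04 ± 0.03). *PGM1*, for the minor phosphoglucomutase, stood at 71.8 and 73.3 CPM.

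In cells moved to 2% glucose the permease and the Leloir enzyme genes were lower, as was *PGM2*, whereas *PGM1* was higher there (149 and 143 CPM). *GAL7* stood at 2.28 CPM in control cells and 3.23 CPM in cells overexpressing *PPZ1* in 2% glucose, and *GAL2* at 0.875 and 2.02 CPM. From 2% glucose to galactose the log2 difference of *GAL7* was 4.02 in control cells and 3.61 with *PPZ1*, and that of *GAL1* was 1.35 and 1.52. The 2 series of values share no library, and the difference between them was not tested. Of the regulators, *GAL3* was similar at 49.7 and 48.1 CPM in galactose (-0.05 ± 0.15), as was *GAL80* at 76.4 and 67.8 CPM (-0.17 ± 0.12). *GAL4*, the activator gene, had the second lowest value of the list, 39.4 CPM in control cells and 30.2 CPM with *PPZ1* (-0.38 ± 0.17).

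Other genes known to carry Gal4 sites ranged from 0.11 to -0.49. *GCY1*, a glycerol dehydrogenase gene, stood at 406 and 377 CPM (-0.11 ± 0.05), and *LAP3*, an aminopeptidase gene, at 294 and 317 CPM (0.11 ± 0.06). *PCL10*, which encodes a cyclin of the Pho85 kinase that controls glycogen synthase, had the lowest value of the list with 42.1 and 29.7 CPM (-0.49 ± 0.17), and *FUR4*, the uracil permease gene, stood at 19.4 and 15.7 CPM (-0.29 ± 0.24). For 10 of the 13 genes the counting interval of the difference held 0, for 3 it lay below and for none above. Over all 5343 genes it held 0 for 3409, lay below for 1576 and above for 358, a similar split. No gene of the list reached 1.5-fold, beside 0.187% higher and 2.15% lower of all genes. The median of the list was -0.07, against -0.13 for all genes.

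**Figure D2:**
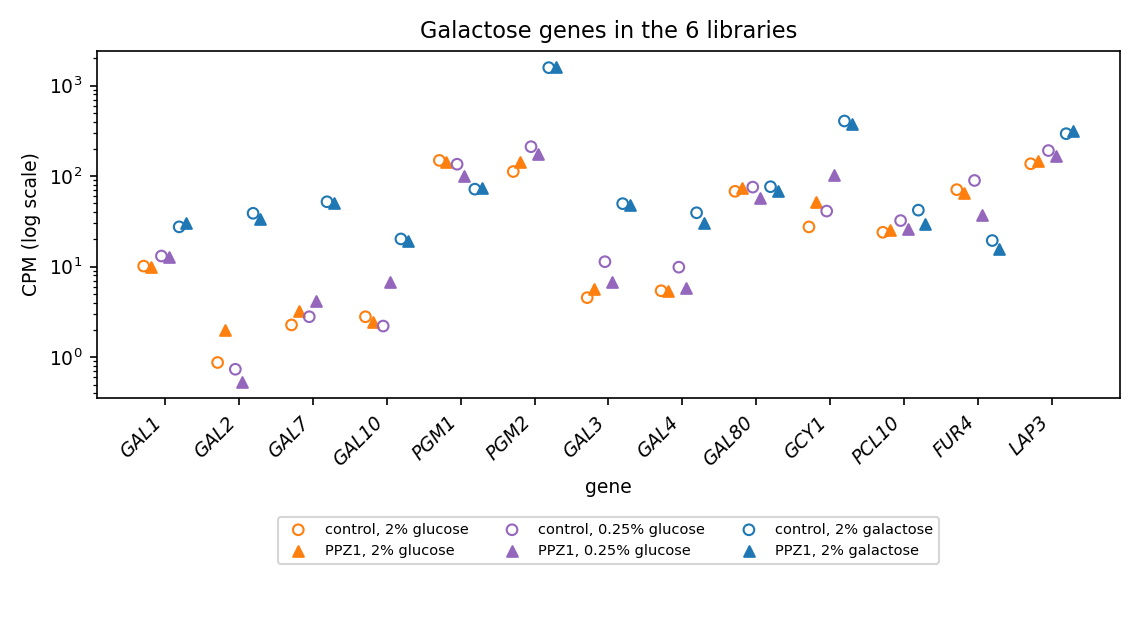
CPM (vertical axis, log scale) of the 13 genes of galactose use in each of the 6 libraries, with open circles for control cells and filled triangles for cells overexpressing *PPZ1*, and 1 point a library. In galactose both symbols lie close for most genes and furthest apart for *PCL10*, *PGM2* at 1576 and 1621 CPM being the highest pair. *GAL2*, *GAL3*, *GAL7* and *GAL10* are below 12 CPM in all 4 glucose libraries.

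Sugar supply outside the Leloir route ranged widely in level. Of 21 hexose transport genes 12 were above 10 CPM, with median levels of 222 and 221 CPM, and the 11 genes of sucrose and maltose use had medians of 35.1 and 36.9 CPM. The high-affinity hexose transporter genes *HXT7* and *HXT6*, nearly identical in sequence so that their reads cannot be safely divided, stood at 8051 and 7568 CPM in control cells and 8836 and 8179 CPM with *PPZ1*. *SUC2*, for invertase, stood at 948 and 1126 CPM (0.25 ± 0.03), and all 4 sugar kinase genes were higher with *PPZ1*, from 0.07 for *HXK1* (6559 and 6897 CPM) to 0.28 for *GLK1* (3321 and 4047 CPM). *HXT1*, for a low-affinity transporter used at high glucose, went the other way with 147 and 121 CPM (-0.28 ± 0.09).

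Glycolysis and fermentation was the group of at least 5 genes with the highest median under the authors' scaling, 21 of its 22 genes being above the median of all genes and the median being 0.20. *TDH3*, which encodes the main glyceraldehyde 3-phosphate dehydrogenase, stood at 15041 CPM in control cells and 19716 CPM with *PPZ1* (0.39 ± 0.01). *ADH1*, for the alcohol dehydrogenase of fermentation, stood at 6405 and 9091 CPM (0.51 ± 0.01), the widest difference of the group. *FBA1*, for aldolase, stood at 7722 and 9206 CPM (0.25 ± 0.01). The exception below the median was *PDC5*, a minor pyruvate decarboxylase gene with few reads (17.3 and 12.7 CPM, -0.41 ± 0.25). None of the 22 reached 1.5-fold, beside 0.187% higher and 2.15% lower of all genes. As these are among the most abundant mRNAs, the trend with level was removed. The median of the group was then 0.20 with that of all genes at 0.00, so that its distance to all genes went from 0.33 to 0.20, and the lists of serine and glycine and of sucrose and maltose use (both 0.20) stood no lower. With the trend with length removed the median was 0.32. In 2% glucose and 0.25% glucose *ADH1* was also higher with *PPZ1*, by 0.13 and 0.23, and *TDH3* by 0.21 in both.

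Gluconeogenesis and the glyoxylate cycle had a median of -0.19, with 5 genes above and 8 below the median of all genes (-0.16 with the level trend removed and -0.07 with the length trend removed). The 7 genes that turn acetaldehyde into acetate and acetyl-CoA stood higher, at -0.01 with all 7 above the median of all genes, among them *ACS1*, for an acetyl-CoA synthetase (399 and 448 CPM, 0.17 ± 0.05). In gluconeogenesis, *FBP1*, for fructose-1,6-bisphosphatase, stood at 65.0 and 46.6 CPM (-0.47 ± 0.14) and *SFC1*, for the mitochondrial carrier of succinate and fumarate, stood at 602 and 466 CPM (-0.37 ± 0.05). *JEN1*, for the lactate and pyruvate transporter, was abundant in both cultures, with 3006 and 2703 CPM (-0.15 ± 0.02). The activator genes of this programme lay in the same range. *ADR1* stood at 1326 and 1059 CPM (-0.32 ± 0.03), *HAP4*, the limiting subunit of the activator of respiratory genes, at 808 and 662 CPM (-0.29 ± 0.04), and *SIP4* at 103 and 79.0 CPM (-0.38 ± 0.11). Of the 29 regulators of glucose repression, 17 lay below the median of all genes, at a list median of -0.18.

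Respiration showed lower values for several small subunits. The respiratory chain list had a median of -0.22, with 15 of 26 genes below the median of all genes (-0.16 with the level trend removed and -0.08 with the length trend removed). *COX7*, for a subunit of cytochrome c oxidase, stood at 561 CPM in control cells and 373 CPM with *PPZ1* (-0.59 ± 0.05), and *COX12*, for another subunit, at 365 and 276 CPM (-0.40 ± 0.06). Of the ATP synthase, *ATP20* stood at 304 and 196 CPM (-0.63 ± 0.07) and *ATP17* at 471 and 354 CPM (-0.41 ± 0.05), while the genes of the catalytic subunits hardly differed (*ATP1* 1894 and 1860 CPM, *ATP2* 3077 and 3016 CPM). The ATP synthase list as a whole was at -0.15, beside -0.13 for all genes, and with median-of-ratios scaling 10 of its 17 genes lay above 0. Of the citric acid cycle, *CIT1*, for citrate synthase, stood at 4314 and 3621 CPM (-0.25 ± 0.02) and *ACO1*, for aconitase, at 2723 and 2146 CPM (-0.34 ± 0.02), while the list stood at -0.08, above the median of all genes.

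Mitochondrial and cytosolic ribosomes were placed on opposite sides. Of the 68 mitochondrial ribosomal protein genes, 45 lay below the median of all genes, at a list median of -0.22. *MRPL6* stood at 84.5 and 52.3 CPM (-0.68 ± 0.13) and *MRP10* at 54.8 and 35.6 CPM (-0.61 ± 0.15), the only 2 of the list past 1.5-fold, or 2.94% beside 2.15% of all genes. Of the 137 cytosolic ribosomal protein genes, 119 lay above the median of all genes, at a list median of 0.06, with 83 above 0 and none past 1.5-fold. *RPL3* stood at 3583 and 4100 CPM (0.19 ± 0.02) and *RPS31* at 2494 and 2575 CPM (0.05 ± 0.02), whereas *RPL33B*, for a paralog with fewer reads, stood at 172 and 124 CPM (-0.47 ± 0.09). Removing the trend with level took these medians to -0.07 and 0.12, and removing that with length to -0.12 and 0.17, with that of all genes at 0.00. *EFB1*, for a subunit of the elongation factor that reloads Tef1 and Tef2, stood at 526 and 708 CPM (0.43 ± 0.04).

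Ribosome biogenesis did not follow the ribosomal proteins. Its 82 genes had a median of -0.14, 38 above and 43 below the median of all genes, and 3 were at least 1.5-fold lower (3.66% beside 2.15% of all genes). Among them *RRP12*, needed for export of the subunits, stood at 75.8 and 46.1 CPM (-0.71 ± 0.13) and *SOF1*, of the small subunit processome, at 27.8 and 17.4 CPM (-0.64 ± 0.21). The abundant *NOP56*, for a core protein of box C/D particles, stood at 364 and 332 CPM (-0.13 ± 0.06), at the median of all genes.

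**Figure D3:**
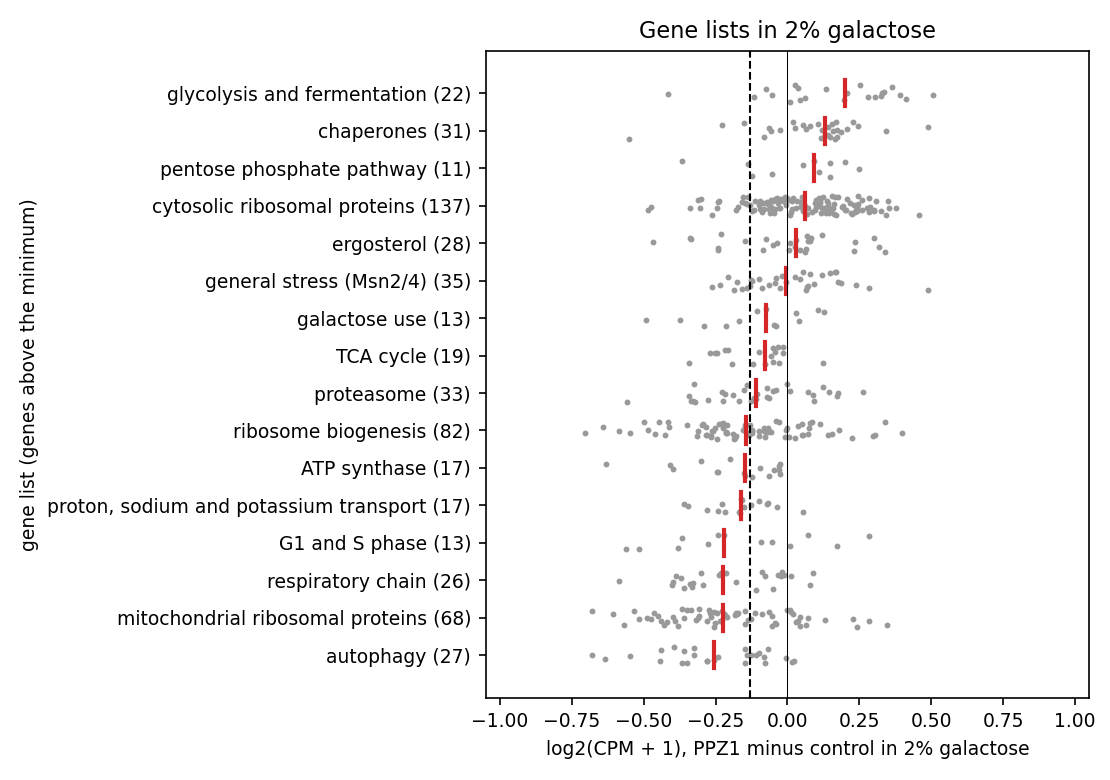
Log2 differences in CPM + 1 between cells overexpressing *PPZ1* and control cells in 2% galactose (horizontal axis) for the genes of 16 lists (rows, with the number above 10 CPM in brackets), 1 grey point a gene; red bars are list medians and the dashed line is the median of all 5343 genes, -0.13. Medians run from 0.20 for glycolysis and fermentation to -0.26 for autophagy, and no point reaches 2-fold.

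Of the chaperones, 28 of 31 genes lay above the median of all genes, at a list median of 0.13. *SSA4*, the stress-induced Hsp70 gene with the Hsf1 element shown above, stood at 1879 and 2638 CPM (0.49 ± 0.02), and *SSA1*, for a major cytosolic Hsp70, at 3437 and 4355 CPM (0.34 ± 0.02). *HSP104*, for the disaggregase, stood at 3498 and 3696 CPM (0.08 ± 0.02). The lowest member was *HSP31*, for a methylglyoxalase, with 196 and 133 CPM (-0.55 ± 0.08). Against 0.00 for all genes the list median was 0.15 with the level trend removed, nearer to all genes than before (0.26 above them), and 0.24 with the length trend removed. Chaperone genes with and without a TTCNNGAA match had medians of 0.12 and 0.15.

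The general stress genes driven by Msn2 and Msn4 had a median of -0.01, 27 of 35 being above the median of all genes. *HSP12*, the membrane chaperone gene often used as a readout of these factors, stood at 10005 and 11310 CPM in galactose (0.18 ± 0.01). In 2% glucose it stood at 578 CPM in control cells and 828 CPM with *PPZ1* (0.52), on levels many times lower. Defence against peroxide was mixed. *AHP1*, for a thioredoxin peroxidase, stood at 2303 and 2980 CPM (0.37 ± 0.02) and *SOD1*, for the copper-zinc superoxide dismutase, at 1416 and 1666 CPM (0.23 ± 0.03), while *GRX2*, for a glutaredoxin, stood at 660.1 and 490.1 CPM (-0.43 ± 0.04) and *DOT5*, for a nuclear peroxidase, at 81.2 and 55.8 CPM (-0.53 ± 0.13). The list stood at the median of all genes, with 16 genes above it and 15 below.

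The copper-binding metallothionein genes *CUP1-1* and *CUP1-2*, 2 copies of the same sequence whose reads cannot be told apart, stood at 2214 and 2267 CPM in control cells and 1563 and 1584 CPM with *PPZ1*, both lower by about the same amount (-0.50 ± 0.02 and -0.52 ± 0.02). *ATX1*, for the copper chaperone that serves iron uptake, was among the 15 lowest values of all (17.3 and 9.22 CPM, -0.84 ± 0.27). *FIT3*, for a cell wall protein that retains iron, was among the 15 highest (55.6 and 83.2 CPM, 0.57 ± 0.13).

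None of the 5 genes of the Ppz1 partners and of the 17 cation transport genes was called at 1.5-fold. Of all genes 0.187% were higher and 2.15% lower by that much, so lists this small would hold few calls. *SIS2*, for the inhibitor Hal3, stood at 88.0 and 88.7 CPM (0.01 ± 0.11) and *VHS3*, for its homolog, at 269 and 258 CPM (-0.06 ± 0.06). *CAB3*, the third member of the complex that makes coenzyme A together with those proteins, stood at 104 and 95.9 CPM (-0.11 ± 0.10). *PPZ2*, the paralog of *PPZ1*, stood at 174 and 155 CPM (-0.17 ± 0.08). *GLC7*, the essential type 1 phosphatase gene, had the lowest value of the list with 616 and 474 CPM (-0.38 ± 0.04), 0.25 below the median of all genes.

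Among the transporters of protons, sodium and potassium, *PMA1*, for the plasma membrane proton pump, stood at 1188 and 1087 CPM (-0.13 ± 0.03) and *ENA1*, for the sodium pump induced by saline and alkaline stress, at 829.9 and 743 CPM (-0.16 ± 0.04). *SAT4* (also called *HAL4*), for a kinase that stabilises the potassium transporters, stood at 236 and 183 CPM (-0.36 ± 0.07). *PMP3*, for a small membrane protein, stood at 879.5 and 692 CPM (-0.35 ± 0.04). The 17 genes had a median of -0.16, 11 of them below the median of all genes (-0.06 with the level trend removed and 0.02 with the length trend removed). Of the calcium and calcineurin genes, *PMC1*, for the vacuolar calcium pump, stood at 502 and 418 CPM (-0.26 ± 0.05), and the list at -0.18 with 10 of 14 below the median of all genes.

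Autophagy had the lowest list median under the authors' scaling, -0.26, with 18 of 27 genes below the median of all genes and 25 below 0. With the level trend removed it stood at -0.10, above gluconeogenesis and the respiratory chain (both -0.16), and with the length trend removed at -0.14. *ATG8*, for the ubiquitin-like protein of the autophagosome membrane, stood at 296 and 244 CPM (-0.28 ± 0.06) and *ATG20*, for a sorting nexin, at 257 and 211 CPM (-0.28 ± 0.07). The values of *ATG16* (24.6 and 14.95 CPM, -0.68 ± 0.23) and *ATG12* (32.7 and 20.7 CPM, -0.63 ± 0.20), both parts of the conjugation machinery, were the 2 past 1.5-fold, 7.41% of the list beside 2.15% of all genes. In proteolysis by the proteasome the list stood at -0.11, near all genes, with *RPN9*, for a lid subunit, at 334 and 226 CPM (-0.56 ± 0.06) and *RPN2*, for a base subunit, at 544 and 525 CPM (-0.05 ± 0.04).

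Cell cycle genes were mostly low in reads. *FAR1*, for an inhibitor of the G1 kinase, stood at 20.0 and 13.2 CPM (-0.56 ± 0.24) and *CLB5*, for an S phase cyclin, at 25.4 and 17.4 CPM (-0.52 ± 0.22). The abundant *SIC1*, for the other G1 inhibitor, stood at 125 and 108 CPM (-0.22 ± 0.10), the median of its list. Among replication genes *MCM7*, for a helicase subunit, stood at 36.2 and 23.2 CPM (-0.62 ± 0.19) and *RNR4*, for ribonucleotide reductase, at 395 and 464 CPM (0.23 ± 0.05). Mating pheromone genes were lower, *MFA2* with 166 and 118 CPM (-0.49 ± 0.09) and *MFA1* with 109 and 77.7 CPM (-0.49 ± 0.11), whereas the receptor gene *STE2* was alike at 146 and 145 CPM.

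In lipid synthesis, *OPI3*, for a methyltransferase of phosphatidylcholine synthesis, stood at 435 and 615 CPM (0.50 ± 0.05), with 8 of the 9 genes of its list above the median of all genes. Ergosterol genes stood at 0.03, 21 of 28 above the median of all genes, although *ERG9*, for squalene synthase, was at 356 and 300.5 CPM (-0.24 ± 0.06) and *ERG8*, for phosphomevalonate kinase, at 109 and 85.5 CPM (-0.34 ± 0.10). In amino acid synthesis *HIS7*, for a step of histidine synthesis, was the lowest with 51.5 and 31.6 CPM (-0.69 ± 0.16) and *LEU1*, for isopropylmalate isomerase, hardly differed at 1941 and 2023 CPM. *GCN4*, the activator of these genes, stood at 1053 and 992 CPM (-0.09 ± 0.03).

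The 15 highest differences were spread over unrelated functions and rested mostly on few reads, 11 of the 15 genes having a mean under 50 CPM. The best measured was *YAT1*, for the outer carnitine acetyltransferase that moves acetyl units into mitochondria, with 315 CPM in control cells and 498 CPM with *PPZ1* (0.66 ± 0.05). Its level in 2% glucose was only 5.08 and 6.05 CPM. *ADO1*, for adenosine kinase, stood at 199 and 294 CPM (0.56 ± 0.07), and *SHB17*, for the sedoheptulose bisphosphatase that makes ribose, at 49.4 and 80.7 CPM (0.70 ± 0.13). *YAT1* alone among them reached 1.5-fold above 100 CPM, where 10 genes were lower by that much.

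*SCC4*, for the cohesin loader subunit, stood at 22.1 and 35.9 CPM (0.67 ± 0.19) and *MET30*, for the F-box protein that restrains sulfur genes, at 36.2 and 54.8 CPM (0.59 ± 0.15). The remaining high genes lay between 10.01 and 17.2 CPM on average. They were *BIO3* (biotin synthesis, 7.56 and 14.95 CPM), *ERR3* (an enolase relative that shares sequence with *ERR1* and *ERR2*, so that its value is uncertain), *YHR180W*, *TRM9* (a tRNA methyltransferase), *NCA3* (implicated in mitochondrial gene expression), *RNH201* (the catalytic subunit of ribonuclease H2), *PUS2* (a mitochondrial pseudouridine synthase), *CNE1* (calnexin) and *YBL010C*, with differences from 0.55 to 0.90 and errors from 0.24 to 0.31.

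The 15 lowest differences, apart from *YOL086W-A*, lay between -1.09 and -0.84. *CRG1*, for a methyltransferase that protects from cantharidin, an inhibitor of phosphatases, stood at 52.9 and 27.2 CPM (-0.94 ± 0.17) and *YHR050W-A*, of unknown function, at 77.4 and 42.4 CPM (-0.86 ± 0.14). In the other 12, 2 functions came up repeatedly. *IPL1*, *BUB1* (a spindle checkpoint kinase, 15.7 and 7.97 CPM) and *MTW1* (a kinetochore protein, 16.2 and 8.47 CPM) belong to chromosome segregation. *SNU23* and *IST3* (splicing factors, 18.1 and 9.22 CPM, and 16.5 and 8.72 CPM), *LSM8* (a U6 RNA-binding protein, 22.9 and 11.96 CPM) and *POP6* (of ribonuclease P, 18.4 and 9.47 CPM) act on RNA, as do *FCF2* and *YIL096C* in making ribosomes. These functions were read from the list after it had been ranked, and no list of them was counted. All 15 highest and 15 lowest values had counting intervals that left out the median of all genes, which follows from choosing them for their size.

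Against the 2 other media, the difference made by the *PPZ1* plasmid in galactose reached few genes, as in 2% glucose, and spread less than in 0.25% glucose. The *PPZ1* mRNA itself was raised least in galactose, by 5.15 on the log2 scale, beside 7.30 in 2% glucose and 7.54 in 0.25% glucose. The medium and the level of overexpression therefore cannot be told apart in this comparison. In 2% glucose 5 genes were at least 2-fold higher (0.0961%) and 3 lower (0.0576%) of 5205, and in 0.25% glucose 41 were higher (0.782%) and 522 lower (9.96%) of 5242. Over the 5020 genes above 10 CPM in all 3 comparisons, the robust SD was 0.21 in galactose, 0.16 in 2% glucose and 0.59 in 0.25% glucose. In the last of these, the differences followed the length of the feature with a Spearman correlation of -0.69 (the *PPZ1* library of that medium is the smallest of the 6), where it was -0.14 in galactose and -0.13 in 2% glucose. Across genes, which are not independent replicates, the galactose differences correlated with those of 2% glucose at a Pearson r of 0.27 and a Spearman rho of 0.27, and with those of 0.25% glucose at 0.10 and 0.11 (no libraries are shared).

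**Figure D4:**
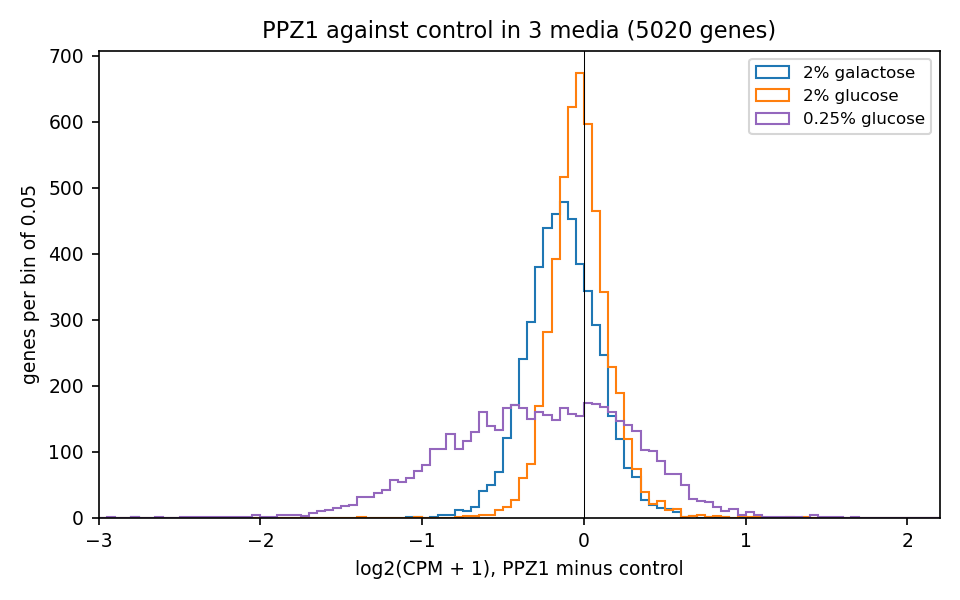
Number of genes (vertical axis, in bins of 0.05) by log2 difference in CPM + 1 between cells overexpressing *PPZ1* and control cells (horizontal axis) in 2% galactose, 2% glucose and 0.25% glucose, for the 5020 genes above 10 CPM in all 3. The galactose curve is narrow, with its centre at -0.13, and the curve of 0.25% glucose is the wide one.

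No gene that was at least 2-fold higher or lower with *PPZ1* in 2% glucose was so in galactose. As only 0% and 0.0561% of all genes were that much higher or lower in galactose, this absence says little about them. Some of them were already far more abundant in control cells in galactose. *NCE103*, which encodes carbonic anhydrase, was at 44.6 CPM in control cells and 116 CPM with *PPZ1* in 2% glucose (1.35 ± 0.11). In galactose it was at 1080.3 and 1011 CPM (-0.10 ± 0.03). *CIT2*, the peroxisomal citrate synthase gene used as a readout of retrograde signalling, was at 55.7 and 137 CPM in 2% glucose (1.29) and at 3429.6 and 3268 CPM in galactose (-0.07 ± 0.02). Both genes were higher with *PPZ1* in 0.25% glucose as well, by 1.65 and 1.44. *PYC1*, for pyruvate carboxylase, followed the same course, with 101 and 178 CPM in 2% glucose and 1166 and 1153 CPM in galactose.

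*TSA2* (a peroxiredoxin gene, 144 and 132 CPM in galactose), *EMP46* (a transport receptor gene, 82.0 and 76.3 CPM) and *SER3* (serine synthesis, 46.4 and 49.6 CPM), the other 3 genes at least 2-fold higher in 2% glucose, differed by -0.13, -0.10 and 0.09 in galactose. Of the 3 genes at least 2-fold lower in 2% glucose, *PCL5*, for a cyclin that promotes breakdown of Gcn4, stood at 367 and 180.4 CPM there (-1.02 ± 0.06) and at 396 and 299 CPM in galactose (-0.40 ± 0.06). *YNL143C*, of unknown function, stood at 23.98 and 5.65 CPM in 2% glucose (-1.91 ± 0.26) and at 10.3 and 9.22 CPM in galactose (-0.14 ± 0.30). The other was *YLR154C-G*, inside the repeated ribosomal DNA, whose count is uncertain. The 29 genes at least 1.5-fold higher in 2% glucose had a galactose median of -0.02, with 22 above the median of all genes. Of them, 1 was at least 1.5-fold lower in galactose (3.45% beside 2.15% of all genes). The general stress list was at 0.40 in 2% glucose beside -0.03 for all genes, and at -0.01 in galactose beside -0.13 for all genes. Conversely, *SSA4* was higher with *PPZ1* in every medium, by 0.73 in 2% glucose, 0.86 in 0.25% glucose and 0.49 in galactose. Whether the differences in galactose and in glucose themselves differ could not be tested with 1 library per group.

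**Figure D5:**
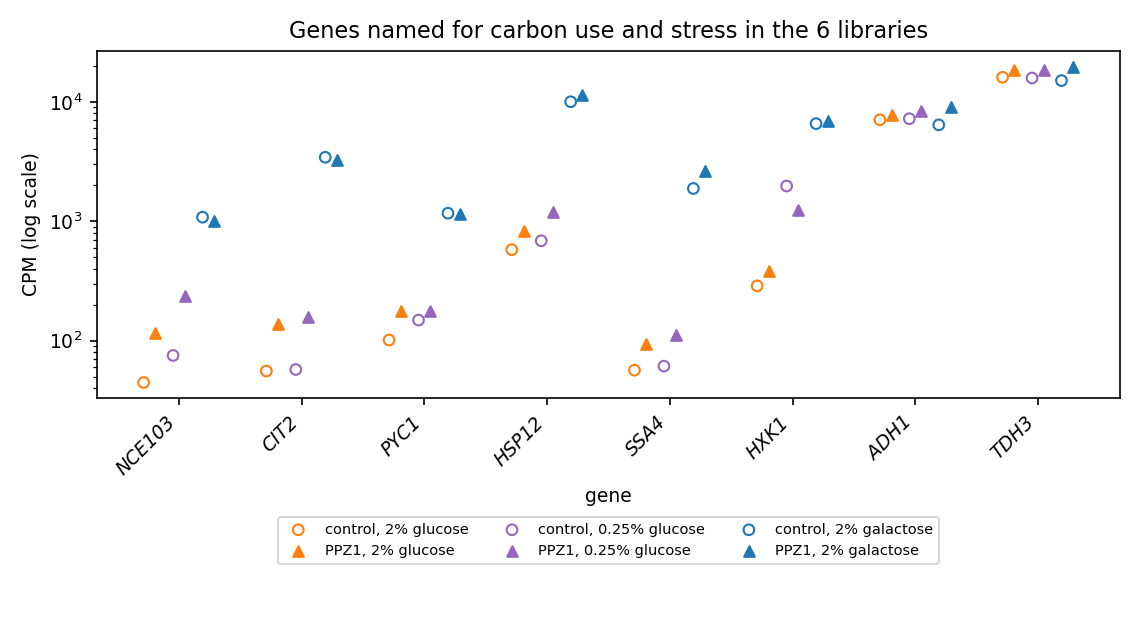
CPM (vertical axis, log scale) of 8 genes of carbon use and stress in each of the 6 libraries, with open circles for control cells and filled triangles for cells overexpressing *PPZ1*, and 1 point a library. *NCE103* and *CIT2* show a gap between both symbols in the glucose media and nearly none in galactose, where they stand at 1080.3 and 1011 CPM and at 3429.6 and 3268 CPM, whereas *SSA4* and *ADH1* keep a gap in galactose.

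Genes higher in galactose than in 2% glucose did not stand apart as a set. Taking the mean of both plasmids, 1204 genes were at least 2-fold higher in galactose than in 2% glucose, and their median difference between cells overexpressing *PPZ1* and control cells in galactose was -0.13, the same as for all genes. Of them, 3 were at least 1.5-fold higher (0.249%, beside 0.187% of all genes) and 18 lower (1.5%, beside 2.15%) with *PPZ1*. The 1008 genes at least 2-fold lower in galactose had a median of -0.08, and the 3131 genes in between one of -0.15. Since the galactose libraries enter both the choice of these sets and the difference, these values describe the sets only.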

How the data were processed

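mRNA-Seq values were available for 6 libraries, of which the 2 from galactose were compared. According to the methods, the authors aligned reads with Bowtie2 (no version stated) and quantified them in SeqMonk 0.32.1 over coding sequences with 50 bp on either side, on the opposite strand and without duplicates. Removal of duplicates can lower abundant and short genes. The deposited values are read counts for control cells in 0.25% glucose (factor 1) and, for the other libraries, a signal that the authors obtained by multiplying counts by 1 factor per library (1.83 and 1.69 for control and *PPZ1* in galactose). Once that factor is divided out, 100% of the values are whole to within 0.01. No source names the genome build, but 5949 of 5959 names found in R64 have the same start and end there. Names turned into dates by a spreadsheet (2) were restored through their identifiers, and 5 emptied lines were not used here.

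CPM were taken from the deposited values over the total of the largest library. Differences are on the log2(CPM + 1) scale, which understates those of low genes, over genes whose mean in the 2 libraries was 10 CPM or more, and calls were made at 2-fold and 1.5-fold. Intervals (95%) come from Poisson counts. With 1 library per group no test of the galactose comparison was possible. Members and lists were chosen with earlier results of these data known. Genes were named by a rule: the 15 highest and 15 lowest differences, all genes of galactose use and Ppz1 partners, and in other lists the 2 most abundant and the 2 with the widest difference. *TSA2*, *EMP46*, *SER3* and *YNL143C* are named outside it as the genes past 2-fold in 2% glucose, as is *YLR154C-G*. Alternatives were other minimums, pseudocounts, thresholds and scalings and removal of length and level trends (running median over 301 genes). The calls, the trend removal and the scaling were tested on simulated data. Python 3.11.15, numpy 2.4.6, pandas 2.3.3, scipy 1.17.1, R 4.3.3 and edgeR 4.0.16 were used.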

Additional observations from a re-analysis of the deposited data

Results flagged for a closer look

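In *NCE103* and *CIT2* the galactose difference between cells overexpressing *PPZ1* and control cells was slightly below 0, -0.0953 and -0.0695 on the log2 scale, while it was above 0 in 2% glucose. Both genes lay above the median of all genes in galactose (-0.13), by 0.03 and 0.06, so that their sign depended on the scaling and was no reversal. *YLR154C-G* had opposite signs, at 0.2489 in galactose and -1.39 in 2% glucose (2459 and 2922 CPM in galactose). It is a feature inside the repeated ribosomal DNA whose count is uncertain. Each medium gave 1 library per plasmid, and these differences were not tested.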

How the results depend on the processing

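No paired analysis was possible because each group holds 1 library, and for the same reason none could be left out. Genes at least 2-fold higher with *PPZ1* in galactose numbered 0, but 18 with no minimum, 13 with a minimum of 1 CPM, and 1 each with median-of-ratios scaling, upper-quartile scaling, the length trend removed or the level trend removed. Genes at least 2-fold lower numbered 3, but 38 with no minimum, 30 with a minimum of 1 CPM, and 1 with a minimum of 50 CPM, either scaling, a pseudocount of 5 CPM, the level trend removed, a threshold of 3-fold, or an interval wholly past 2-fold. A threshold of 1.5-fold gave 10 higher and 115 lower. At that threshold the higher and lower counts were 114 and 282 with no minimum, 72 and 230 at 1 CPM, 2 and 26 at 50 CPM, 63 and 34 with median-of-ratios, 52 and 35 with upper-quartile scaling, 6 and 56 with a pseudocount of 5 CPM, 42 and 39 with the length trend removed, and 49 and 31 with the level trend removed. The minimums change which genes are tested. The scalings shift all genes alike and so also change which genes pass the minimum. These were 5399 with median-of-ratios and 5330 with upper-quartile scaling, beside 5343 with the authors' scaling. No value changed sign after being called at 2-fold. Of 57 lists, 52 moved with either scaling, 49 with the length trend removed and 38 with the level trend removed, and 57 stayed with a pseudocount of 5 CPM. Removal of the level trend was chosen after seeing the data, as was an edgeR quasi-likelihood fit of all 6 libraries with plasmid and carbon source as additive terms (5886 genes, 2 residual degrees of freedom). It tests a difference shared by the 3 media and not the galactose comparison. With Benjamini-Hochberg adjustment it called *PPZ1* (adjusted p = 0.00135) and 0 other genes, 246 others having an unadjusted p under 0.05. Depth limits single genes most under 50 CPM.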

Other observations

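Among genes of at least 100 CPM (1874, of which 98.6% lay within 0.5 of zero), a few of the widest differences after *YOL086W-A* are given here. They were chosen after they had been seen and are not a complete ranking. Values such as those of *NUT1* (-0.64) and *IMP2'* (0.55) are left out. *YNR034W-A*, of unknown function, stood at 3348 CPM in control cells and 2201 CPM in cells overexpressing *PPZ1* in galactose (-0.60 ± 0.02). *HMRA1*, from the silent mating locus, which shares sequence with the active locus so that its count is uncertain, stood at 161 and 94.7 CPM (-0.76 ± 0.09). *YPR010C-A*, of unknown function, stood at 289.8 and 179 CPM (-0.69 ± 0.07). On the high side *RPS15*, for a protein of the small ribosomal subunit, stood at 484 and 666 CPM (0.46 ± 0.04), and *CYS3*, for a step of cysteine synthesis, at 157 and 215 CPM (0.45 ± 0.08).

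The 15 genes of highest difference in galactose had a median of 0.20 in the comparison of both plasmids in 2% glucose, with 13 of 15 above 0, and the 15 lowest had a median of -0.26, with 12 of 15 below 0. The median of all genes in 2% glucose was -0.03. In 0.25% glucose 8 of the 15 highest lay above 0 and 7 of the 15 lowest below 0, where the median of all genes was -0.25. The shares of all genes above and below 0 in both glucose media were not counted. These counts therefore have no background beside them.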
